A study of Mus musculus with 9 samples.

Results

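The matrix metalloproteinases (MMPs), the ADAM and ADAMTS proteases and their tissue inhibitors (TIMPs) were followed in endothelial cells (ECs) of the mouse lung with and without metastases and with an antibody to VEGFR2. Members were all genes whose symbol consists of Mmp, Adam, Adamts or Timp, a number and at most 1 letter, which gave 65 of the 18193 genes measured by a probe set with 1 gene symbol. They comprised 18 MMPs, 28 ADAMs, 15 ADAMTSs and 4 TIMPs. Where a gene had several probe sets, the brightest over all arrays stood for it, and 30 members had more than 1. Mmp15 and Adamts13 were not analysed here.

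Whole lungs of NSG mice, which lack mature lymphocytes and NK cells but keep myeloid cells, were dissociated and sorted for CD31, with cells bearing CD45, CD11b, EpCAM, CD140a/b or the GFP of the cancer cells gated out. The "healthy" group were age-matched mice without cancer cells that received rat IgG. The "metastatic IgG" group received MDA-MB-231-LM2 cells, human breast cancer cells of a line selected for lung metastasis, through the tail vein at 6 to 8 weeks of age, and rat IgG on days 21 and 24. The "metastatic DC101" group received the same cells and, on the same days, 40 mg/kg of DC101, a rat antibody that blocks mouse VEGFR2, the main signalling receptor for VEGF on ECs. Lungs were taken on day 25. Each group had 3 arrays described as biological replicates. Whether each came from its own mouse is not stated in the labels, and the p-values rest on the spread of these arrays alone. Because whole lungs were sorted, ECs inside and outside nodules were mixed, and all groups came from 1 xenograft model in immunodeficient animals.

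MMPs are zinc proteases that cut collagens, laminins and other matrix proteins, either after secretion or from the cell surface. ADAMs are membrane proteins, several of which shed the outer parts of receptors, ligands and adhesion molecules, whereas ADAMTSs are secreted and act mainly on proteoglycans such as versican and aggrecan and on procollagens. TIMPs block the active sites of these enzymes, and sprouting ECs use several of them to open the basement membrane that surrounds a vessel.

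The 9 arrays carried log2 values, and a change is given as a difference of log2 values, so that 1 unit is a doubling. Levels of different genes are not set against each other, since probe sets differ in brightness for the same amount of RNA. A gene was called when its adjusted p, from limma with Benjamini-Hochberg correction over all 18193 genes, was under 0.05. Of the members, 18 lay above the median level of all genes (9.03), so many sat in the dim range of the array, where changes are compressed.

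The mean of 12 endothelial markers ran from 13.5 to 13.6 in every group, and 1 of them, Emcn, rose between healthy and metastatic IgG lungs. All 12 had signals above the median of all genes, which is a rough mark of brightness and no measure of purity. Metastatic IgG arrays differed from healthy arrays in markers of other cells as well. Of the 6 lymphatic endothelial markers 3 rose (Prox1, Mmrn1 and Reln), and the mean of that list ran from 9.64 to 10.3 in healthy and from 11.1 to 11.2 in metastatic IgG arrays. Of 14 macrophage markers 4 rose and 1 fell, with means of 8.57 to 8.70 and 8.83 to 8.90. Of 14 fibroblast and mural markers 3 rose (Col1a1, Col1a2 and Col3a1) and 2 fell (Dcn and Myh11), with means of 9.86 to 10.0 and 9.74 to 10.2. Of 11 lung epithelial markers 4 fell, as did 3 of 6 platelet markers, while no mesothelial, neutrophil or lymphocyte marker was called. The difference between 3′ and 5′ Gapdh probe sets, a sign of RNA length, was 0.69 to 0.77 in healthy, 0.47 to 0.57 in metastatic IgG and 0.35 to 0.60 in metastatic DC101 arrays. The part of these differences in the results below was not tested.

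**Figure D1:**
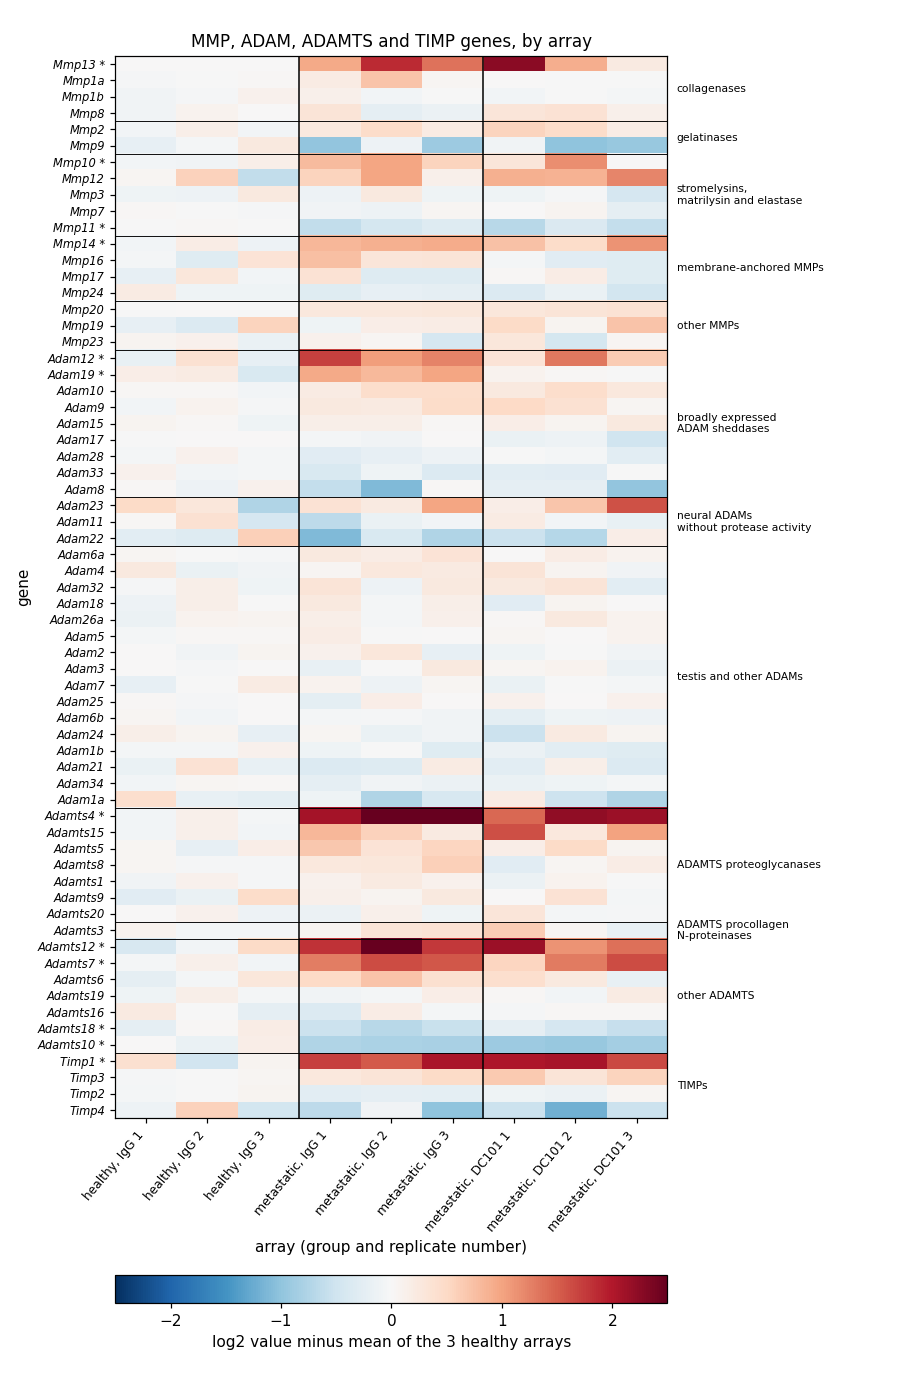
Log2 value of each of the 65 members (rows, grouped by role) on each of the 9 arrays (columns), minus the mean of the 3 healthy arrays; red is higher, blue is lower (values past the ends of the colour bar take its end colour), and a star marks the genes called between metastatic IgG and healthy lungs. None of the 16 testis and other ADAMs is starred, and Adamts4, Adamts12, Adamts7 and Timp1 are above the healthy mean on all 6 arrays from metastatic lungs.

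The first comparison asked what the presence of metastases went with in ECs under control IgG. Of the 65 members 12 were called, which is 18.5% against 6.53% of all genes. The count was 9 higher (3.93% of all genes were called higher) and 3 lower (2.60% of all genes). The genes that rose were Adamts4, Adamts12, Timp1, Adamts7, Mmp13, Adam12, Adam19, Mmp14 and Mmp10, and those that fell were Adamts10, Adamts18 and Mmp11. Arrays of 1 group lay wholly on 1 side of the other for 30 members (46.2%, against 27.6% of all genes), of which 21 were above healthy (13% of all genes) and 9 below (14.7% of all genes). The median change of the members was 0.06, against -0.02 for all genes, and the median size of the change was 0.26, against 0.15. By family, 4 of 18 MMPs, 2 of 28 ADAMs, 5 of 15 ADAMTSs and 1 of 4 TIMPs were called. Leaving out replicate 1 of the healthy arrays reduced the 12 to 7. By the cutoffs of the study, 10 members were called, against 4.82% of all genes. In sorted bulk RNA, a change in the number of cells that carry a transcript and a change in RNA per cell cannot be told apart.

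The ADAMTS family held the members with the largest changes. Adamts4, an aggrecanase that also cuts versican, read 8.10, 8.30 and 8.13 on the healthy arrays and 10.25, 10.86 and 10.80 on the metastatic IgG arrays. All metastatic arrays lay well above all healthy arrays. The change was 2.46 (SE 0.17, 5.51-fold, adjusted p = 0.000772), and the second probe set of the gene moved by 1.59 with no overlap. Adamts12, a secreted protease that cuts cartilage oligomeric matrix protein, read 6.18, 6.51 and 7.07 in healthy and 8.40, 9.08 and 8.35 in metastatic IgG lungs. The groups lay apart, with a change of 2.03 (SE 0.28, 4.08-fold, adjusted p = 0.00840). Its other, dimmer probe set moved by -0.12 with overlapping arrays, and the change was 0.96 when both probe sets were averaged (adjusted p = 0.0182). Adamts7, known from the vessel wall for its role in smooth muscle cell migration, read 8.38, 8.56 and 8.37 against 9.72, 10.06 and 9.99. All 3 metastatic arrays were higher, by 1.49 on average (SE 0.12, 2.80-fold, adjusted p = 0.00137). These 3 calls held when any 1 of the 6 arrays was left out.

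The ADAMTS genes that fell were fewer and changed less. Adamts10, which binds fibrillin microfibrils, read 10.97, 10.79 and 11.12 in healthy and 10.21, 10.16 and 10.14 in metastatic IgG lungs. The healthy arrays were all higher, and the change was -0.79 (SE 0.11, adjusted p = 0.00848). Its second probe set moved by -0.81, and the call held without any 1 array. Adamts18 read 6.65, 6.90 and 7.07 against 6.34, 6.17 and 6.31, a change of -0.60 (SE 0.13, adjusted p = 0.0388). This dim gene was called in 1 of the 6 fits that left out an array, the one without replicate 1 of the healthy arrays, and the adjusted p of the other 5 ran from 0.0866 to 0.113. Its other probe sets moved by -0.20 and -0.08 with overlapping arrays.

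Adamts1 and Adamts9, versican-cutting ADAMTSs known from vessels, were not called. Adamts1, which is expressed by ECs and limits angiogenesis, read 12.80, 12.98 and 12.86 in healthy and 12.98, 13.11 and 13.00 in metastatic IgG lungs (change 0.15, adjusted p = 0.420). Adamts9 read 11.38, 11.49 and 12.12 against 11.79, 11.73 and 11.90 (change 0.15, adjusted p = 0.726), with healthy arrays on both sides of the others. The 95% interval of Adamts9 ran from -0.31 to 0.60. Its dimmer probe sets moved by 0.43, with metastatic IgG arrays wholly above healthy, and by -0.13 with overlap. Of the 7 proteoglycanases 1, Adamts4, was called (6.53% of all genes were called). Arrays lay wholly above healthy for 5 of them (13% of all genes), Adamts4 and Adamts1 among them. The other 3, named after their values were seen, were not called. Adamts5, an aggrecanase, changed by 0.51 (95% interval 0.19 to 0.83, adjusted p = 0.0773), and its 3 other probe sets moved by 0.82, 0.18 and -0.12. Adamts15 changed by 0.54 (0.16 to 0.92, adjusted p = 0.104) and Adamts8 by 0.38 (0.11 to 0.65, adjusted p = 0.108).

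Among the inhibitors, Timp1 rose while the other TIMPs did not pass the test. Timp1, a soluble inhibitor of most secreted MMPs, read 8.09, 7.21 and 7.77 in healthy and 9.40, 9.23 and 9.74 in metastatic IgG lungs. The lowest metastatic array was more than 1 log2 unit above the highest healthy array, and the change was 1.76 (SE 0.24, 3.39-fold, adjusted p = 0.00820), a call that held without any 1 array. Timp3, which is bound to the matrix, inhibits ADAM17 and aggrecanases and binds VEGFR2, read 13.00, 13.03 and 13.08 against 13.29, 13.37 and 13.51. All 4 of its probe sets had metastatic arrays wholly above healthy, by 0.32 to 0.52, but the change of the brightest, 0.35 (SE 0.09), had an adjusted p of 0.0753. Timp2, the inhibitor through which MMP14 activates pro-MMP2, read 13.54, 13.59 and 13.66 against 13.34, 13.37 and 13.36 (change -0.24, adjusted p = 0.149), lower on all 3 metastatic arrays. Timp4 read 7.88, 8.59 and 7.56 against 7.35, 7.92 and 7.01, with overlap (change -0.58, adjusted p = 0.350).

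Among the membrane-anchored MMPs, Mmp14 rose. This protease, MT1-MMP, cuts fibrillar collagen at the cell surface and is used by endothelial tip cells, and it read 10.49, 10.74 and 10.42 in healthy and 11.37, 11.44 and 11.48 in metastatic IgG lungs. The metastatic arrays lay together and apart from healthy, at a change of 0.88 (SE 0.11, 1.84-fold, adjusted p = 0.00598) that kept its call without any 1 array. A second probe set moved by 0.79 without overlap and the dimmest probe set by 0.37 with overlap. Mmp16, or MT3-MMP, read 8.12, 7.86 and 8.52 against 8.93, 8.46 and 8.49, with overlap (change 0.46, adjusted p = 0.246). Its 3 other probe sets moved by -0.22, -0.06 and 0.05, and averaging all 4 gave 0.06.

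The gelatinases, which cut the type IV collagen of basement membranes, did not pass the test. Mmp2 read 11.68, 11.89 and 11.68 in healthy and 11.99, 12.20 and 11.95 in metastatic IgG lungs, higher on each metastatic array (change 0.30, adjusted p = 0.186). Mmp9, which is abundant in neutrophils, read 8.22, 8.39 and 8.68 against 7.44, 8.31 and 7.51 (change -0.68, adjusted p = 0.170). One metastatic array lay within the healthy range. The dimmer probe set of Mmp9 moved by -0.30, with metastatic IgG arrays wholly below healthy. None of the 9 neutrophil markers was called, and the mean of that list ran from 7.41 to 7.70 in healthy and from 7.80 to 8.07 in metastatic IgG arrays.

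Of the secreted collagenases and stromelysins, Mmp13 and Mmp10 rose and Mmp11 fell. Mmp13, collagenase 3, read 5.53 on each of the 3 healthy arrays and 6.48, 7.40 and 6.89 on the metastatic IgG arrays. The healthy values were identical, at a level below which lay 0.0222% to 0.0244% of the probe sets of those arrays, so the healthy level had no measured spread and is close to the lowest value of the table (5.40). The change was 1.39 (SE 0.22, adjusted p = 0.0132). With the healthy level at the low end, its size of 2.63-fold is uncertain and may be compressed. The healthy arrays add no spread to its SE, which limma estimates with the help of the spread of all genes. The call was lost without healthy replicate 1 (adjusted p = 0.0555) and without metastatic IgG replicate 3 (0.0518). A single fit of all 9 arrays did not call Mmp13, Mmp10 or Mmp11 either. Mmp10, stromelysin 2, which cuts proteoglycans and activates procollagenases, read 6.80, 6.79 and 7.02 against 7.67, 7.87 and 7.44, all higher (change 0.78, SE 0.13, adjusted p = 0.0193). Without healthy replicate 1, healthy replicate 2 or metastatic IgG replicate 1, its adjusted p was 0.0730, 0.0645 and 0.0619. Mmp11, stromelysin 3, read 9.80, 9.85 and 9.81 against 9.20, 9.38 and 9.49, all lower (change -0.46, SE 0.10, adjusted p = 0.0442). Its call was lost in all 6 fits with an array left out, with adjusted p from 0.0596 to 0.124.

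**Figure D2:**
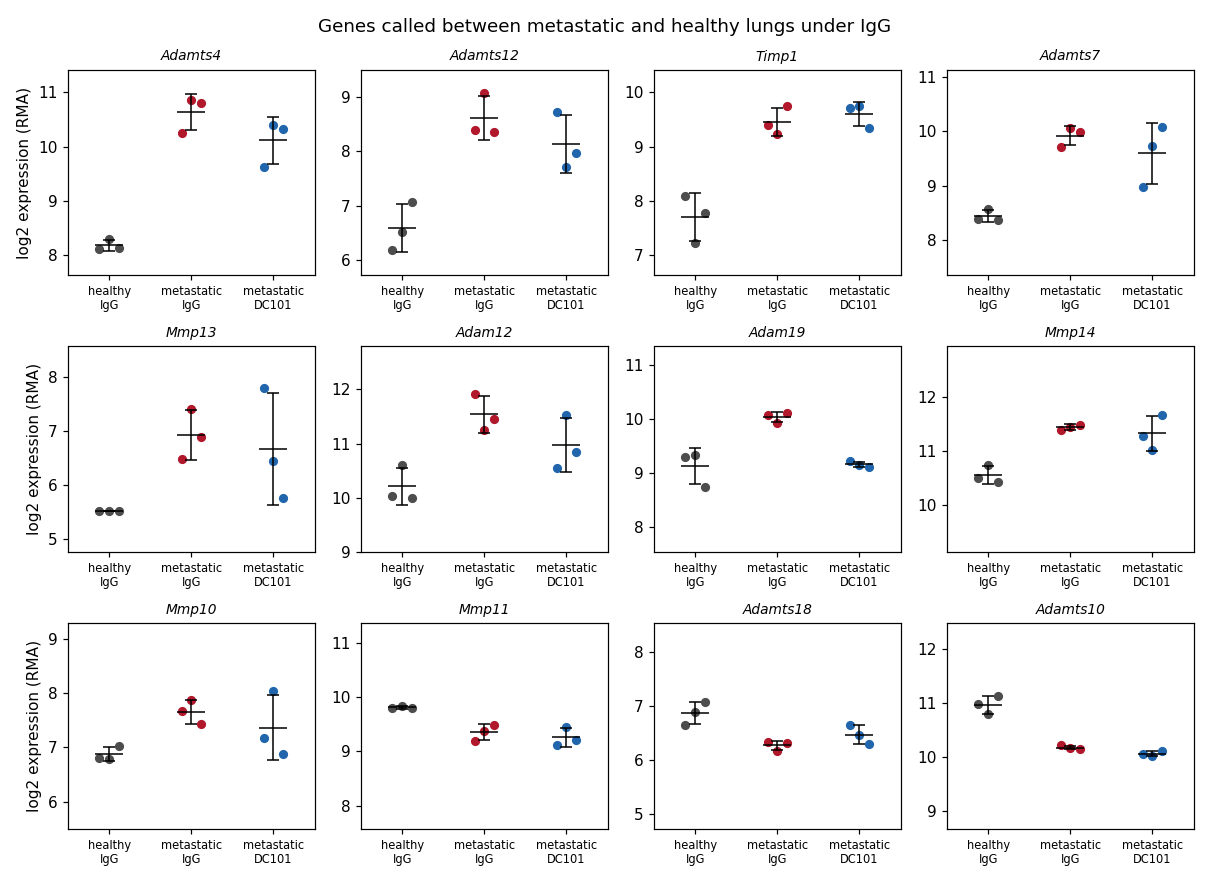
Log2 expression (vertical axis, each panel spanning the same number of log2 units) of the 12 genes called between metastatic IgG and healthy lungs, in the 3 groups; points are arrays and bars the mean ± SD (n = 3). In each panel the red points lie wholly above or wholly below the grey ones, and the blue DC101 points of Adam19 lie within the healthy range.

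Mmp13 and Mmp10 belong to a run of 10 MMP genes that are neighbours on chromosome 9 with 3 genes of other kinds among them. In the order of RefSeq (GRCm38.p6) the MMPs are Mmp13, Mmp12, Mmp1b, Mmp3, Mmp1a, Mmp10, Mmp8, Mmp27, Mmp20 and Mmp7, of which all but Mmp27 were measured. Of these 9 genes 2 were called and 7 were not (6.53% of all genes were called). Values of genes of the run other than Mmp13 and Mmp10 are given because of their place, and this was chosen after the values had been seen. Mmp3, stromelysin 1 and a close relative of Mmp10, read 7.16, 7.14 and 7.52 in healthy and 7.14, 7.53 and 7.16 in metastatic IgG lungs, so the groups overlapped and the change was 0.00. Mmp8, the neutrophil collagenase, changed by -0.01. Mmp12, the macrophage elastase, changed by 0.56, with a 95% interval from -0.22 to 1.33. Mmp20, or enamelysin, which acts in tooth enamel, changed by 0.27 (95% interval 0.08 to 0.45, adjusted p = 0.103), and Mmp1a, a collagenase, by 0.32 (-0.08 to 0.72, adjusted p = 0.332). Both had metastatic IgG arrays wholly above healthy. Mmp1b changed by 0.01 and Mmp7, matrilysin, by -0.06, with overlap.

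**Figure D3:**
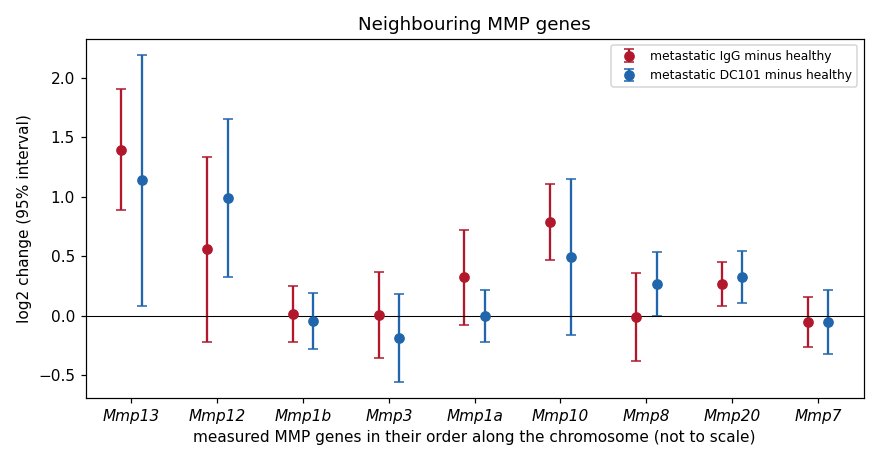
Log2 change with its 95% interval (vertical axis) of the 9 measured MMP genes of the run, in their order along the chromosome and not to scale; red is metastatic IgG minus healthy and blue metastatic DC101 minus healthy. Mmp13 and Mmp10 stand at 1.39 and 0.78 in red, and the red points of Mmp1b, Mmp3, Mmp8 and Mmp7 lie close to 0.

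The promoters of this run were read from RefSeq (GRCm38.p6), as 300 bases from 250 before to 50 after the start of the gene. Many MMP promoters are known for a site of the AP-1 transcription factor close to the start, so the letters TGANTCA, which read the same on both strands, were searched and are in capitals in the sequences of the genes that rose (Mmp13 and Mmp10), of a neighbour that did not (Mmp3) and of the neighbour without the letters (Mmp8). All are on the plus strand, at chr9:7272264-7272563 for Mmp13, chr9:7502092-7502391 for Mmp10, chr9:7445572-7445871 for Mmp3 and chr9:7558179-7558478 for Mmp8.
Mmp13: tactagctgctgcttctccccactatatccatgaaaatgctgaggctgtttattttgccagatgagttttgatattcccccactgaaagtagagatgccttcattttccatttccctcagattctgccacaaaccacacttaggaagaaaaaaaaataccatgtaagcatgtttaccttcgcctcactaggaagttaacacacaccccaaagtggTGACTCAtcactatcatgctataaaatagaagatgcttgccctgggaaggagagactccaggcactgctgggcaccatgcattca
Mmp10: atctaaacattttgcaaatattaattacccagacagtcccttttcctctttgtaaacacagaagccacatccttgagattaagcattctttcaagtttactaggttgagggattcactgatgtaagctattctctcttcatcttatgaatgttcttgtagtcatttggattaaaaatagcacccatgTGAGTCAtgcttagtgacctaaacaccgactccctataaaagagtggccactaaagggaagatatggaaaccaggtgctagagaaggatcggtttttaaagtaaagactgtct
Mmp3: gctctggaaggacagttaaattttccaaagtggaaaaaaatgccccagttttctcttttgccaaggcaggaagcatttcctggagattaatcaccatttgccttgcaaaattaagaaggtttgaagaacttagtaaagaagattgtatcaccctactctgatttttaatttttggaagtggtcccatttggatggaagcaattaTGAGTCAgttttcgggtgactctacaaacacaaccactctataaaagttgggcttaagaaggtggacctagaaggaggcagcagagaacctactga
Mmp8: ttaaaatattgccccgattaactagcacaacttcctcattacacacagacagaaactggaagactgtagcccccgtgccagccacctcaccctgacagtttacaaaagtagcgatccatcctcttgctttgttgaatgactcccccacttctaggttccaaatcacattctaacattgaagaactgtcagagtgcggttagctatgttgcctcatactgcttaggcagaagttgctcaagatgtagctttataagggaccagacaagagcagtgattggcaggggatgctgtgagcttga

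The match began 35 bases before the start in Mmp13, 63 in Mmp10 and 46 in Mmp3. Windows were at hand for 37 of the 65 members and for 8 of the 12 called ones. TGANTCA was in 2565 of all 32851 windows of the genome (7.81%). It was in 11 of the 42 windows of members, and so in a window of 11 of the 37 members. These were Mmp13, Mmp10 and Adam19 among the 6 with a window that rose, none of the 2 that fell, and 8 that were not called. Of the 9 measured genes of the run, 8 held it, so the letters were shared by neighbours that rose and neighbours that were not called. The TATA box letters TATAAA (both strands) were in all 9 and in 13.6% of all windows. The letters AGGAAG of the PEA3 and ETS factors (both strands) were in 7 of the 9 and in 35.4% of all windows. A gene was counted when any of its windows held the letters, and Mmp12 and Mmp7 had 2 windows each. Counts of genes and shares of windows are therefore unlike measures. No match overlapped another in the printed windows. A match of letters is a description and does not show that a factor bound there.

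The ADAM family had a median size of change of 0.16, against 0.28 for MMPs, 0.51 for ADAMTSs, 0.47 for TIMPs and 0.15 for all genes. Within the family the median size was 0.09 for the 16 testis and other ADAMs. It was 0.31 for the 9 broadly expressed ADAMs, so the family value is not a trait of all ADAMs. The 16 testis and other ADAMs, many of which act in sperm, had no call, and their changes ran from -0.42 to 0.26. The 3 neural ADAMs without protease activity had none either, with changes from -0.75 to 0.53. Of the 9 broadly expressed ADAMs, 2 rose (3.93% of all genes were called higher). Adam12, meltrin alpha, which sheds EGF receptor ligands, read 10.03, 10.60 and 10.00 in healthy and 11.91, 11.25 and 11.45 in metastatic IgG lungs. The groups lay apart (change 1.33, SE 0.22, 2.51-fold, adjusted p = 0.0177), and the second probe set moved by 1.30. The adjusted p was 0.0690 without healthy replicate 1, 0.0554 without healthy replicate 3 and 0.0590 without metastatic IgG replicate 3. Adam19, meltrin beta, which sheds neuregulin, read 9.30, 9.34 and 8.74 against 10.07, 9.93 and 10.10, all higher (change 0.91, SE 0.17, 1.88-fold, adjusted p = 0.0249), and its second probe set moved by 0.87. The call was lost without healthy replicate 1 (adjusted p = 0.0574) and without each metastatic IgG array in turn (0.0787, 0.0601 and 0.0875).

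The sheddases best known from ECs were not called. Adam10, which cuts Notch receptors and VE-cadherin, read 12.01, 12.00 and 11.90 in healthy and 12.16, 12.41 and 12.41 in metastatic IgG lungs, higher on each array (change 0.36, adjusted p = 0.0961), but its 3 other probe sets moved by 0.80, 0.19 and -0.17. Adam17, the TNF-converting enzyme, read 11.55, 11.56 and 11.56 against 11.51, 11.48 and 11.56 (change -0.04, 95% interval -0.23 to 0.15). Adam15, which carries an integrin-binding domain, changed by 0.10 (95% interval -0.12 to 0.32). Adam8, a leukocyte sheddase, read 8.41, 8.24 and 8.47 against 7.79, 7.27 and 8.40, with overlap (change -0.56, adjusted p = 0.286).

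**Figure D4:**
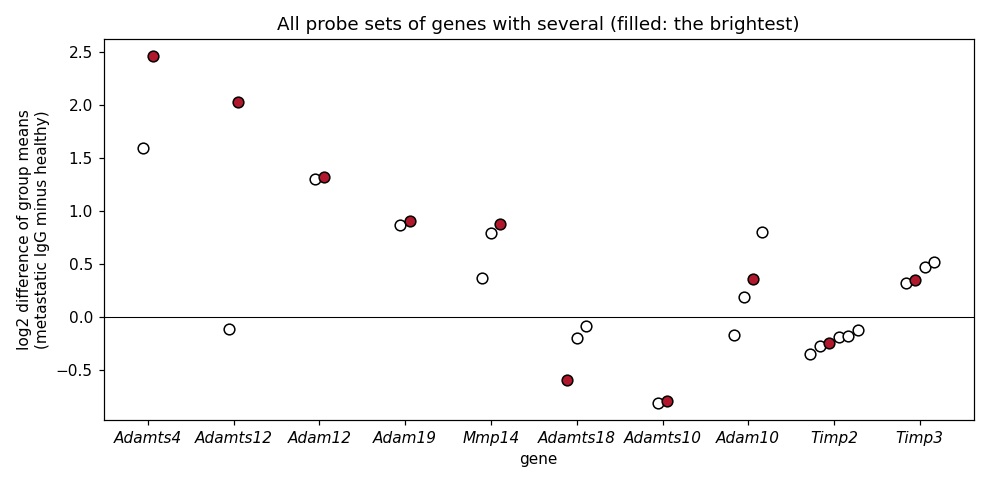
Difference of group means, metastatic IgG minus healthy (vertical axis, log2), for every probe set of 10 named genes with several; filled points are the brightest probe set, which stood for the gene. Probe sets of Adamts4, Adam12, Adam19, Mmp14, Adamts18, Adamts10, Timp2 and Timp3 lie on 1 side of 0, and those of Adamts12 and Adam10 on both.

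Of 22 genes of matrix substrates measured, 10 rose, 1 fell and 11 were not called between metastatic IgG and healthy lungs (6.53% of all genes were called), with a median change of 0.35 against -0.02 for all genes. Vcan, or versican, the substrate of ADAMTS4, rose by 1.77 (SE 0.26, adjusted p = 0.0104), and fibronectin, Fn1, by 1.69 (SE 0.18, adjusted p = 0.00338). The basement membrane laminin genes Lama1, Lamb1 and Lamc1 rose by 2.11, 2.42 and 0.66, Col4a2 by 0.50 and Nid1 by 0.39. The fibrillar collagen genes Col1a1, Col1a2 and Col3a1, which are fibroblast markers too, rose by 1.85, 1.29 and 0.87, while the proteoglycan gene Dcn, likewise a fibroblast marker, fell by 1.05. Pdgfra and Pdgfrb, whose proteins were gated out, changed by -0.57 and -0.12 and were not called.

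The related genes below are to be read against the 6.53% of all genes called. Of 18 activators and inhibitors, Thbs2, a matricellular protein that aids the uptake of MMP2, rose by 1.10 (adjusted p = 0.0127) and Spock2, a testican, fell by 0.70 (adjusted p = 0.0397), with a median of 0.01 for the list. None of the 10 partners of ADAM10 and ADAM17 was called (median -0.02). Of 8 ADAMTS-like and related genes, Adamtsl1 rose by 0.47 and Adamtsl5 fell by 0.78, and the median was -0.42. Of 29 endothelial membrane proteins known to be shed, Jam3 and Selp rose by 0.55 and 1.06, Cx3cl1 and Cd44 fell by 0.94 and 0.68, and the median was 0.01.

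The second comparison asked what the VEGFR2 antibody went with in metastatic lungs. According to the study, the mice analysed had been chosen for a similar metastatic burden of the lungs by bioluminescence. No gene was called among the 18193 (0%), and so none of the 65 members, by limma, at the adjusted p or by the cutoffs of the study. At an unadjusted p under 0.05 there were 1209 genes (6.65%) and 3 of the members. Arrays of 1 group lay wholly on 1 side of the other for 11 members (16.9%, against 12.4% of all genes), with 9 lower under DC101 (6.95% of all genes) and 2 higher (5.40% of all genes). The median change of the members was -0.03, against -0.02 for all genes. The related lists had no call either.

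Adam19 differed most. It read 10.07, 9.93 and 10.10 in metastatic IgG lungs and 9.21, 9.15 and 9.12 in metastatic DC101 lungs. All DC101 arrays were lower, by 0.88 on average (SE 0.10, 95% interval of the change -1.12 to -0.63). Its unadjusted p was 4.47e-05, the second smallest (rank 2) of the 18193 genes, but the adjusted p was 0.406 and ran from 0.149 to 0.954 over 13 alternatives, so the difference did not pass. The second probe set moved by -0.72 with overlapping arrays. Mmp16 read 8.93, 8.46 and 8.49 against 8.12, 7.89 and 7.86, all lower (change -0.67, SE 0.16, adjusted p = 0.737), while its 3 other probe sets moved by -0.15, -0.02 and 0.04.

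Genes that had risen with metastases read as follows. They were picked for high values on the metastatic IgG arrays, and the change under DC101 is measured from those same arrays. A lean towards lower values is therefore built into this choice, for Adam19 above as well, and no conclusion is drawn from the signs. Adamts4 read 9.62, 10.40 and 10.32 under DC101, a change from metastatic IgG of -0.52 (95% interval -1.10 to 0.06). Adam12 read 10.54, 11.53 and 10.85, a change of -0.56 (-1.20 to 0.07), and Adamts12 read 8.73, 7.71 and 7.97, a change of -0.47 (-1.17 to 0.22). The arrays overlapped for each of these 3 genes. Timp1 read 9.72, 9.75 and 9.34, a change of 0.15 (-0.26 to 0.55), and Mmp14 read 11.28, 11.01 and 11.66, a change of -0.12 (-0.51 to 0.28). The dimmer probe sets of Mmp14 moved by -0.28 and -0.41, each with DC101 arrays wholly below the metastatic IgG arrays. Mmp13 was the most scattered, at 7.79, 6.44 and 5.76, with an interval of its change from -1.40 to 0.88. Adamts7 changed by -0.33 (-0.95 to 0.29) and Mmp10 by -0.29 (-0.96 to 0.38). The intervals printed in this paragraph include 0, and with 3 arrays a group they are wide. The correlation of each DC101 array with the others of its group ran from 0.984 to 0.986, against 0.988 to 0.989 in the other groups.

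**Figure D5:**
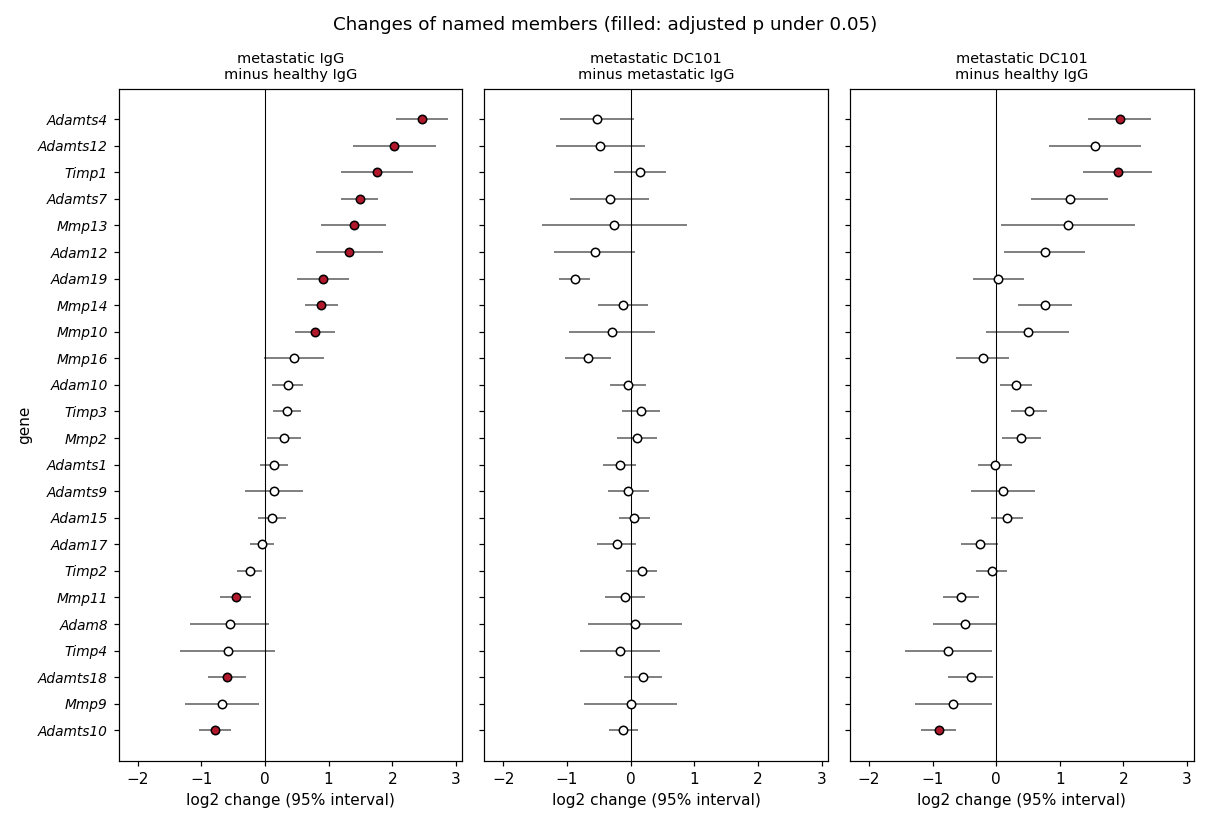
Log2 change with its 95% interval (horizontal axis) of the 24 named members (vertical axis) in the 3 comparisons; filled points passed the adjusted p of 0.05. Points are filled for 12 genes in the left panel, none in the middle panel, where Adam19 stands at -0.88, and 3 in the right panel (Adamts4, Timp1 and Adamts10).

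The last comparison set metastatic DC101 against healthy lungs, and it shares its arrays with the comparisons above. In this comparison 3 of 14 fibroblast and mural markers (Col1a1, Col1a2 and Col3a1) and 1 of 7 mesothelial markers (Wt1) were higher and 3 of 6 platelet markers were lower, and their part in the results was not tested. Of the 65 members 3 were called (4.62%, against 2.42% of all genes), 2 higher (1.58% of all genes) and 1 lower (0.835% of all genes). Adamts4 was higher by 1.94 (SE 0.21, 3.83-fold, adjusted p = 0.00659) and Timp1 by 1.91 (SE 0.23, 3.76-fold, adjusted p = 0.0100), and both calls held without any 1 array. Adamts10 read 10.04, 10.01 and 10.12 under DC101 and was lower by 0.90 on the log2 scale (change -0.90, SE 0.12, adjusted p = 0.0139). Its adjusted p was 0.0752 and 0.050 without healthy replicates 1 and 3 and 0.0501 and 0.0523 without DC101 replicates 1 and 2, and these fits did not call it. Arrays of 1 group lay wholly on 1 side of the other for 22 members (33.8%, against 23.1% of all genes).

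Further members stood apart from healthy lungs without passing. Adamts12 differed by 1.55 (adjusted p = 0.0521), and by 0.84 when its probe sets were averaged. Adamts7, at 8.98, 9.73 and 10.07 under DC101, differed by 1.16 (adjusted p = 0.0756), Mmp14 by 0.77 (0.0901), Timp3 by 0.52 (0.0810) and Mmp11 by -0.55 (0.0662). The DC101 arrays of these 5 genes did not overlap with the healthy ones. The dimmer probe sets of Mmp14 differed from healthy by 0.51 without overlap and by -0.04 with overlap. Mmp13 differed by 1.14 (adjusted p = 0.263), Mmp12 by 0.99 (0.138) and Adamts15 by 0.95 (0.175), each with DC101 arrays wholly above healthy. Adam19 lay at the healthy level, with a change of 0.04 (95% interval -0.36 to 0.43). When all 9 arrays shared 1 estimate of the spread, 8 members were called, adding Adamts12, Adamts7, Mmp11, Mmp14 and Timp3. By the cutoffs of the study 9 were called, against 3.60% of all genes. Of the matrix substrates 8 of 22 were higher (1.58% of all genes), among them Vcan by 1.59 and Lamb1 by 1.30, and none was lower (0.835% of all genes). The 8 include the fibroblast markers Col1a1, Col1a2 and Col3a1.

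Adamts7, Mmp13 and Timp1 are on the list of secreted-protein genes that the study chose as rising in ECs of metastatic lungs. The study describes that choice for a time course of metastasis, apart from the antibody experiment to which these arrays belong.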

How the data were processed

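ECs sorted from mouse lungs were profiled on 9 Affymetrix Mouse Genome 430 2.0 arrays, after RNA amplification from picogram inputs. The deposited log2 values were made by the authors with RMA in Chipster, which corrects background, quantile-normalizes and summarizes probes, so arrays share 1 distribution and a shift common to all genes cannot be seen. The table holds 45101 probe sets. Probe sets with 1 gene symbol in the platform annotation (34945) were kept, and the one with the highest mean over the 9 arrays stood for each of 18193 genes. Those with several symbols (932), without a symbol (9160) or for controls (64) were left out, with no filter on low values.

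Groups followed the labels. Each comparison was fitted with limma 3.58.1 in R 4.3.3 (lmFit and eBayes) on its 6 arrays, two-sided, with Benjamini-Hochberg adjustment over all genes and a threshold of 0.05, and the script was tested on simulated data. The members and lists were chosen with earlier results of these data known. Named members were those called in any comparison, the 5 with the largest change in each, the 4 TIMPs and a list of genes with known roles in vessels or in the secreted-protein list of the study. Alternatives were 1 fit over 9 arrays, a replicate block, the mean of all probe sets, no _x_at, _s_at or _a_at probe sets, genes above the median only, a trended and robust prior, median centring, leaving out each array, and the cutoffs of the study. The precision is limited by 3 arrays a group, and no scan dates or batches were given in the sources used here.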

Additional observations from a re-analysis of the deposited data

How the results depend on the processing

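No call of a named gene reversed its direction under these alternatives. Between metastatic IgG and healthy lungs, leaving out 1 array gave 7 to 10 called members against 12, and 556 to 759 called genes against 1188. Adamts4, Adamts7, Adamts10, Adamts12, Mmp14 and Timp1 were called in all 6 of these fits. In this comparison a single fit of all 9 arrays gave 9 members, losing Mmp10, Mmp11 and Mmp13. Genes above the median only gave 10 members, 7 of the 12 and Adam10, Adamts5 and Timp3, since the dim members Adamts12, Adamts18, Mmp10, Mmp13 and Timp1 were not tested, and the trended prior gave 14, adding Adam10, Timp2 and Timp3 and losing Mmp11. Between DC101 and healthy lungs, 440 genes were called, and 110 to 361 with 1 array left out. A single fit of all 9 arrays called 662 genes and 8 members there, the trended prior 5 members and the cutoffs of the study (a log2 change beyond 0.75 with an adjusted p below 0.25) 9 members, against 3. Between DC101 and IgG no alternative called a member.

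The replicate numbers did not pair the arrays, since correlations of the deviations of arrays with the same number ran from -0.054 to 0.084. With the replicate number as a block, 689 genes and 8 members were called between metastatic IgG and healthy lungs, with Adam12, Adam19, Adamts18, Mmp10 and Mmp11 lost and Timp4 gained, and 247 genes and 3 members between DC101 and healthy lungs. The cause of these shifts was not tested. Precision is set by 3 arrays a group, and dim genes such as Mmp13 and Adamts18 are close to the low end of the signal.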
